A study of Mus musculus with 57 samples.

Results

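The colony-stimulating factors are secreted proteins that keep macrophages and granulocytes alive and drive their division, and microglia, the macrophages of the brain, depend on them. Described here are 7 genes of this family: the ligands Csf1 and Il34, their shared receptor Csf1r, the alpha chain of the GM-CSF receptor Csf2ra, its beta chain Csf2rb, the beta chain Csf2rb2 that serves the IL-3 receptor, and the G-CSF receptor Csf3r. They were taken by symbol from both count tables of the series, 7 of 68885 gene symbols that occur in at least 1 of the tables. CSF1R is a receptor tyrosine kinase on which adult microglia rely for survival. GM-CSF and G-CSF act through receptors that have no kinase of their own and signal through JAK kinases and STAT factors, and SOCS proteins, which are induced by STAT factors, end the signal. In the adult brain CSF1 and IL-34 come mostly from cells other than microglia.

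The data are read counts of CD11b-positive brain cells, labelled as microglia, of adult mice. WT animals and littermates deficient in P2RY12 (KO) were compared. P2RY12 is a purine receptor of resting microglia. How the gene was disrupted, and the strain, are not given in the sources used here. In the sex experiment, without a labelled treatment, there were 4 WT and 5 KO males, and 4 WT and 5 KO females. The LPS experiment held WT and KO animals labelled ns or LPS, with no sex given. LPS is bacterial lipopolysaccharide, injected into the peritoneum at 1 mg/kg. The label ns is not explained in the sources and is kept as written. Sequencing totals were 58539820 to 318509775 counts per animal in the sex experiment and 15912288 to 45312267 per library in the LPS experiment, where 1 library, WT ns 4, had 168443379. Nothing says whether LPS libraries came from separate animals, and p-values measure the spread between these libraries.

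Several libraries of the LPS experiment stood apart before any comparison. The 4 WT libraries of library number 2 (WT ns 1 and 5, WT LPS 1 and 6) went against their treatment label in Saa3, an acute-phase gene that LPS induces: its CPM (the count relative to the TMM-scaled library total) was 1814 in WT ns 1, 2426 in WT ns 5, 1.61 in WT LPS 1 and 2.98 in WT LPS 6. They are shown apart and enter no comparison. WT LPS 8 and 9 differed little more than counting noise allows (chi-square over its degrees of freedom 1.86, where all other pairs within a group of this experiment reached 8.31 or more) and were summed as 1 sample, which left 6 WT ns, 6 WT LPS, 8 KO ns and 8 KO LPS samples. A further property split the libraries: in 6 of them (WT ns 5, WT LPS 6, WT LPS 7, KO ns 5, KO ns 6 and KO LPS 5) the deviation from the labelled group had an SD over genes of 1.01 to 1.73 on the log2 scale, against 0.158 to 0.706 in the other 26, and mitochondrial transcripts reached 23495 to 109861 CPM, against 8298 to 17802. These are called the departing libraries. By the first number in the library names, 1 to 4 or 5 to 8, the libraries form 2 sets, and all 6 are in set 2. Csf1, Csf1r, Csf2ra, Csf2rb, Csf2rb2 and Csf3r were each lower in all 6 of them than in any of the other 26. Csf1, for example, was at 9.25 to 13.0 CPM in the departing libraries and at 29.7 to 93.6 CPM elsewhere. The share of all genes that lay lower in all 6 departing libraries was not counted. The part of these properties in the results was not tested, and the tests of the members in the LPS experiment are given with and without the 4 departing libraries that take part in the comparisons. The targeted gene P2ry12 was lower in KO in every comparison of genotypes, for example 4477 ± 757 CPM (SD, n = 6) in WT ns against 724 ± 186 CPM (n = 8) in KO ns.

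The stretches just upstream of the genes Csf2ra, Csf2rb2 and Csf3r are shown because Csf2ra and Csf2rb2 were among the members that rose with LPS and Csf3r was not. RefSeq start sites on GRCm38.p6 were used, and each run is the 250 bases before the start, 5′ to 3′ on the gene's strand. Capitals mark letters that match GAGGAA (the core bound by PU.1, the factor that defines macrophages), TTCNNNGAA (the STAT element) or an NF-kappaB-like element (GGG and CC with any 5 bases between them), on either strand. They lie at chr19:61228419-61228668 (minus strand), chr15:78305722-78305971 (minus strand) and chr4:126024409-126024658 (plus strand) in this order.
Csf2ra: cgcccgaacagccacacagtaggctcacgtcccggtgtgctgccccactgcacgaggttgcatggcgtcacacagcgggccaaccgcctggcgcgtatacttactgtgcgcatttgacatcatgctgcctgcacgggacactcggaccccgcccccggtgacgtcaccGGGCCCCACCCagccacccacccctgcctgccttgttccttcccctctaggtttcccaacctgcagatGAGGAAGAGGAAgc
Csf2rb2: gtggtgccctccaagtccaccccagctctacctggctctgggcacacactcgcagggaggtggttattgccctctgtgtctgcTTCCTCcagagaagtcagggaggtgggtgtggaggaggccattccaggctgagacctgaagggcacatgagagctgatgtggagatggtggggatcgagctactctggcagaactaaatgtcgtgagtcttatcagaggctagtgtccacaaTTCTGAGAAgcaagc
Csf3r: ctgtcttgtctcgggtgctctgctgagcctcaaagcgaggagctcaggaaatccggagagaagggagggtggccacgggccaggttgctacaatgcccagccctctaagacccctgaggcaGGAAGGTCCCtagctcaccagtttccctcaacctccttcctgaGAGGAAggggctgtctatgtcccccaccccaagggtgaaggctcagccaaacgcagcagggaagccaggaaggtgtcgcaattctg

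Over 32851 promoters of the same length, 23.3% held GAGGAA, 7.0% held TTCNNNGAA and 45.8% held the NF-kappaB-like element. All 3 of the promoters shown hold GAGGAA: a pair of adjacent copies 14 to 3 bases before the Csf2ra start, a copy on the opposite strand 167 to 162 bases before the Csf2rb2 start, and a copy 86 to 81 bases before the Csf3r start. TTCNNNGAA occurs only in Csf2rb2 among these 3, from 15 to 7 bases before its start. The NF-kappaB-like element occurs in Csf2ra and Csf3r, and in Csf2ra its matches on both strands overlap. The matches describe the letters only. A promoter of Csf1 is also in the table (3 separate places match the NF-kappaB-like element and none of the other motifs), so 4 of the 7 genes have an entry that was used.

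On GRCm39, the build of the deposited coordinates, Csf1r lies on chromosome 18 (61238644 to 61264211, plus strand), Csf1 on chromosome 3 (107648364 to 107668048, minus), Il34 on chromosome 8 (111467809 to 111532579, minus), Csf2ra on chromosome 19 (61205629 to 61221141, minus) and Csf3r on chromosome 4 (125917241 to 125938768, plus). Csf2rb (78210000 to 78235201, plus) and Csf2rb2 (78166707 to 78189921, minus) are neighbours on chromosome 15 with a gap of 20.1 kb between their starts. They are near copies of each other. The longest open reading frames of their transcripts were 95.2% identical over 2631 aligned bases. Windows of 50 bases were taken from the Csf2rb transcript with the longest open reading frame. Of these, 18.4% occur unchanged in protein-coding transcripts of Csf2rb2. The share was 7.0% for windows of 100 bases and 3.5% for windows of 150 bases, and the read length is not given in the sources used here. Reads from such windows cannot be assigned, so the split of counts between the beta chains is uncertain.

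Levels per length set the order of the family. In WT ns, Csf1r stood highest with 1794 ± 361 CPM per kb of exon (SD, n = 6), with exon lengths from GENCODE vM21. Csf3r followed with 421 ± 42.9 CPM per kb and Csf2ra with 99.6 ± 25.5. Csf2rb (29.7 ± 4.20) and Csf2rb2 (28.6 ± 2.44) came next and did not differ beyond their spread, since their ranges of 24.03 to 35.07 and 25.63 to 31.59 CPM per kb overlap. Csf1 was at 7.10 ± 0.324 CPM per kb, and Il34 at 0.0267 ± 0.0221. Every other pair of neighbours in this order had ranges that did not overlap.

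**Figure D1:**
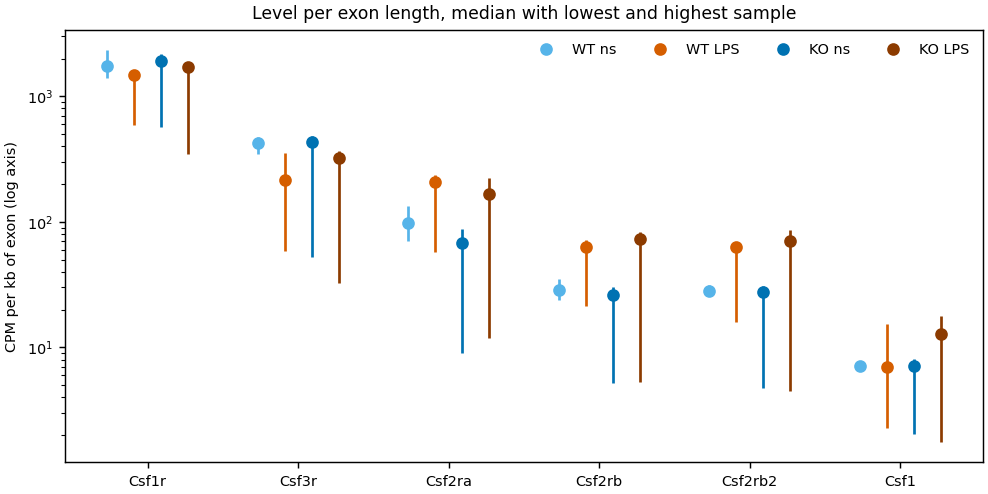
Level of 6 genes of the family in the LPS experiment, in CPM per kb of exon on a log axis, with the median of each group as a point and its lowest and highest sample as a line. Csf1r is highest and Csf1 lowest in all 4 groups; the long lines downward in WT LPS, KO ns and KO LPS come from the departing libraries.

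Il34, the neuronal ligand of CSF1R, was at very low counts in the LPS experiment. Its counts ran from 0 to 9 per sample over all 32, including the 4 set apart, and 9 samples held more than 3 counts. The deepest library, WT ns 4, held 9 counts (0.0563 CPM). In the 8 samples with 0 counts, a count of 0 allows up to 0.104 to 0.214 CPM (3 counts, counting error only). It did not pass the filter on low counts there and was not tested. In the sex experiment Il34 was at 0.733 to 3.11 CPM (63 to 893 counts). Its span there overlaps Mtss2, Gm15894 and Gm39250 on the opposite strand, and whole spans were counted with a strand setting that is not given in the sources used here, so reads of those genes may be included.

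In KO animals, LPS went with higher levels of both GM-CSF receptor chains and of the IL-3 receptor's beta chain. Of the 6 members tested, 3 rose (Csf2ra, Csf2rb and Csf2rb2) and 0 fell (edgeR's quasi-likelihood test, Benjamini-Hochberg adjustment over 17954 genes, adjusted p under 0.05). Over all genes, 26.2% were called in this comparison, 11.9% higher and 14.2% lower. The median log2 fold change of the 6 was 1.21, against -0.03 over all genes tested.

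Csf2ra, which binds GM-CSF itself, ran from 26.05 to 252 CPM in KO ns (median 194, n = 8) and from 33.9 to 640 CPM in KO LPS (median 481, n = 8). The lowest values in both groups are departing libraries, and 7 of the 8 KO LPS samples were above the highest KO ns sample. The log2 fold change (± SE) was 1.48 ± 0.44 (edgeR, adjusted p = 0.012), a 2.79-fold difference. Without the departing libraries the groups did not overlap. Csf2ra was then at 187 to 252 CPM in KO ns (n = 6) and 412 to 640 CPM in KO LPS (n = 7). The share of all genes without overlap there was not counted. The change of Csf2ra was then 1.31 ± 0.27 (edgeR, adjusted p = 0.000377).

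Csf2rb, the signalling chain shared by the GM-CSF, IL-3 and IL-5 receptors, ran from 38.2 to 221 CPM in KO ns (median 190) and from 38.9 to 600.0 CPM in KO LPS (median 536). Its log2 fold change was 1.54 ± 0.39 (edgeR, adjusted p = 0.00325), and 1.44 ± 0.25 without the departing libraries. Csf2rb2 ran from 22.3 to 147 CPM in KO ns (median 130) and from 21.2 to 407 CPM in KO LPS (median 331), with 1.52 ± 0.42 (edgeR, adjusted p = 0.00718) and 1.41 ± 0.27 without the departing libraries. For both beta chains 7 of 8 KO LPS samples lay above all KO ns samples, and all 7 did so without the departing libraries. The share of all genes that separate in this way was not counted, and 37.8% of all genes were called without the departing libraries. Csf2rb2 held 33.04% to 42.83% of the counts of the 2 genes in the LPS experiment, so their values moved nearly in step, and as the split is uncertain they are not independent measurements.

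Csf1, the ligand, ran from 10.8 to 42.6 CPM in KO ns (median 37.7) and from 9.25 to 93.6 CPM in KO LPS (median 68.1), and 6 of 8 KO LPS samples lay above all KO ns samples. The difference of 0.94 ± 0.37 on the log2 scale did not pass the test (edgeR, adjusted p = 0.0605). Without the departing libraries it was 0.85 ± 0.27 and passed (edgeR, adjusted p = 0.0128), which makes 4 members called against 37.8% of all genes. DESeq2 also called 4 with all samples, and 5336 of 17954 genes. KO LPS 7, at 36.3 CPM, lay within the KO ns range, and the departing KO LPS 5 lay below it.

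The receptors Csf1r and Csf3r were not called in KO. Csf1r was at a median of 10979 CPM in KO ns (3285 to 12596) and 9803 CPM in KO LPS (2022 to 10442), a log2 difference of -0.18 ± 0.25 (edgeR, adjusted p = 0.668). Csf3r was at 1558 CPM (190 to 1740) and 1171 CPM (117 to 1315), a difference of -0.36 ± 0.41 (edgeR, adjusted p = 0.577). Without the departing libraries the ranges of the groups did not overlap for either gene: Csf1r was at 10748 to 12596 CPM in KO ns and 8959 to 10442 in KO LPS, and Csf3r at 1509 to 1740 and 519 to 1315, both lower with LPS, in a comparison where 37.8% of all genes were called. The test did not call either there (edgeR, adjusted p = 0.333 for Csf1r with -0.19 ± 0.15 and 0.17 for Csf3r with -0.49 ± 0.28). The share of all genes whose ranges lie apart in this comparison was not counted.

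**Figure D2:**
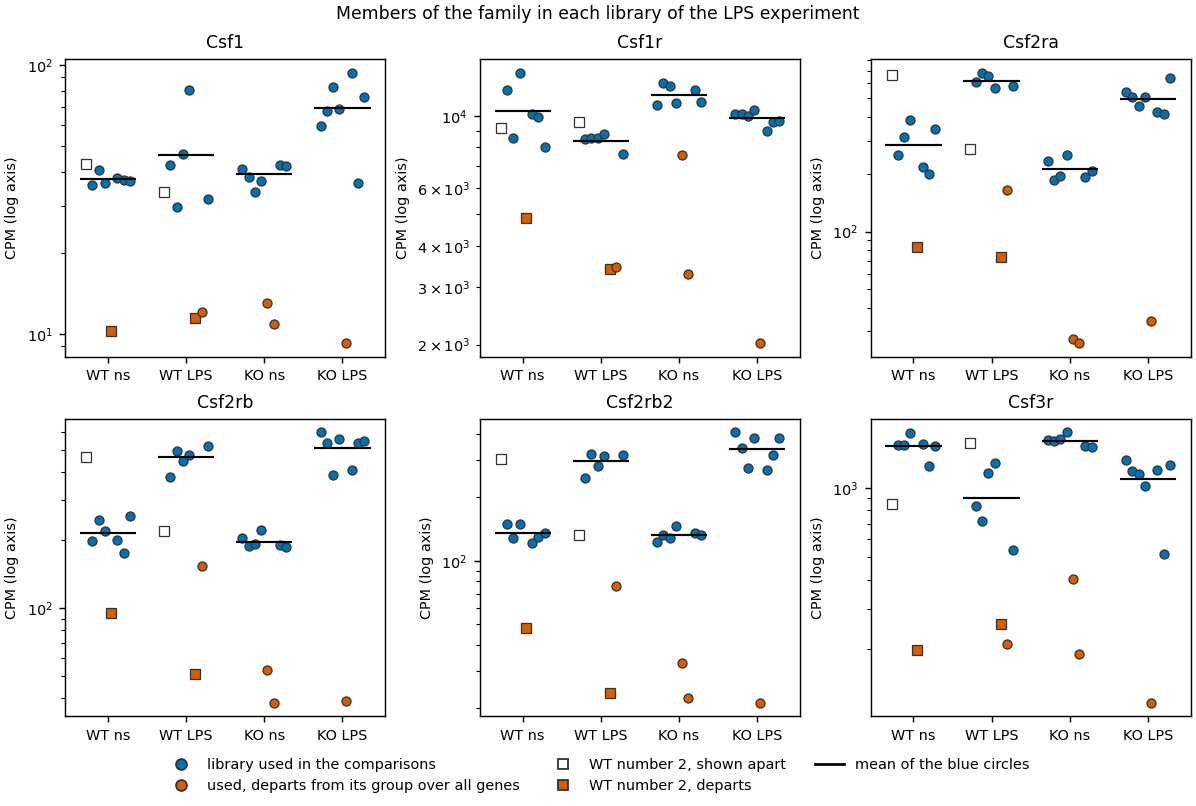
CPM of 6 genes in every sample of the LPS experiment, by labelled group, on log axes. Circles entered the comparisons and squares are the WT libraries of library number 2, shown apart; orange marks the departing libraries, and black lines are means of the blue circles. The blue circles of Csf2ra, Csf2rb and Csf2rb2 are higher in both LPS groups than in both ns groups, while the square of WT ns 1 lies with the LPS samples and that of WT LPS 1 with the ns samples.

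In WT animals the same chains pointed the same way. However, edgeR called 0 of the 6 tested members, against 28.1% of all genes. DESeq2 called 0 members and 5844 of 17954 genes. With edgeR, 2 of the 6 had an unadjusted p under 0.05. Without the departing library WT LPS 7, and the KO departing libraries that share the fit, 3 were called higher, against 37.4% of all genes. Within library set 1 alone, which holds no departing library, 5 were called in WT and 5 in KO, against 38.4% and 40.6% of all genes. These calls were not all higher: Csf1r and Csf3r were called lower in WT, and Csf3r was called lower in KO. The fit of set 1 compares only WT ns 2 to 4, WT LPS 2 to 4, KO ns 1 to 4 and KO LPS 1 to 4. Set 2 alone called 0 in either genotype, against 2.77% of all genes in WT and 3.76% in KO, with Csf2ra at 0.86 in WT and 1.82 in KO on the log2 scale (edgeR, adjusted p = 0.685 and 0.285). With the WT libraries of number 2 kept in the groups their labels give, 0 members and 0 of 15857 genes were called between WT LPS and WT ns.

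Csf2ra ran from 202 to 383 CPM in WT ns (median 283, n = 6) and from 166 to 683 CPM in WT LPS (median 597, n = 6). The lowest WT LPS value is WT LPS 7, and the other 5 lay above all WT ns samples. The share of all genes with such a split was not counted. The log2 fold change was 0.89 ± 0.50 (edgeR, adjusted p = 0.188), and 1.11 ± 0.28 without the departing libraries (edgeR, adjusted p = 0.00315). In the WT libraries set apart, Csf2ra was at 665 CPM in that labelled WT ns 1 and 273 CPM in that labelled WT LPS 1, and the departing pair was low in both, at 83.2 CPM in WT ns 5 and 73.8 CPM in WT LPS 6.

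Csf2rb, the beta chain, was at 175 to 255 CPM in WT ns (median 210) and 154 to 522 CPM in WT LPS (median 462), a change of 0.92 ± 0.44 (edgeR, adjusted p = 0.119) and of 1.12 ± 0.26 without the departing libraries (edgeR, adjusted p = 0.00128). Csf2rb2 was at 121 to 150 CPM (median 132) and 76.0 to 321 CPM (median 299), a change of 0.93 ± 0.48 (edgeR, adjusted p = 0.15) and of 1.14 ± 0.29 (edgeR, adjusted p = 0.00263).

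Csf3r was at 1246 to 1727 CPM in WT ns (median 1537) and at 211 to 1285 CPM in WT LPS (median 778). Of the 6 WT LPS samples, 5 were below all WT ns samples. The difference of -0.98 ± 0.47 was not called (edgeR, adjusted p = 0.125), nor was -0.74 ± 0.31 without the departing libraries (edgeR, adjusted p = 0.0587). In set 1 alone it was called in both genotypes, with -0.80 ± 0.15 in WT (edgeR, adjusted p = 0.000687) and -0.46 ± 0.13 in KO (edgeR, adjusted p = 0.0102). Neutrophils also carry G-CSF and GM-CSF receptors, and the summed level of 9 neutrophil markers, all in the table and none at 0 throughout, ran from 336 to 17451 CPM in WT ns and, without WT LPS 7, from 1725 to 3530 CPM in WT LPS. The median was 2612 CPM in WT ns and 2220 CPM in WT LPS. Without the departing libraries it ran in KO ns from 300 to 7525 CPM (median 932). In KO LPS it then ran from 1024 to 3640 CPM (median 2154). The ranges of the neutrophil sums overlapped between ns and LPS in both genotypes. The summed level of 6 monocyte markers, all in the table, had a median of 235 CPM in KO ns (129 to 878) and 417 CPM in KO LPS (294 to 731), and of 471 CPM in WT ns (201 to 1925) and 461 CPM in WT LPS (380 to 760), also without the departing libraries. The part of these cells in the levels of Csf3r, Csf2ra and the beta chains was not tested. In bulk RNA, fewer cells of a type and less RNA per cell cannot be told apart.

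Csf1r, the receptor microglia need, was at 8043 to 13541 CPM in WT ns (median 10021) and 3440 to 8793 CPM in WT LPS (median 8512). The difference of -0.46 ± 0.29 was not called (edgeR, adjusted p = 0.259). It was -0.29 ± 0.16 without the departing libraries (edgeR, adjusted p = 0.159), and -0.39 ± 0.15 in set 1 alone, where it was called (edgeR, adjusted p = 0.0481). Over the same samples 8 microglial markers summed to 14274 to 26221 CPM in WT ns and 9139 to 16452 CPM in WT LPS, and to 22530 to 45076 CPM in KO ns and 11639 to 21102 CPM in KO LPS. All 8 were present, so the labelled cell type has its markers in every group. Macrophages at the borders of the brain also carry CSF1R, and the summed level of 6 of their markers was 251 to 695 CPM in WT ns, 87.9 to 336 in WT LPS, 188 to 574 in KO ns and 90.5 to 284 in KO LPS. Their part in the level of Csf1r was not tested. Csf1 was at 35.7 to 40.6 CPM in WT ns (median 37.2) and at 12.0 to 81.0 CPM in WT LPS (median 37.1), a difference of 0.12 ± 0.42 (edgeR, adjusted p = 0.869). The 5 WT LPS samples that do not depart were spread from 29.7 to 81.0 CPM, with WT LPS 5 highest, and without WT LPS 5 the difference was -0.34.

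**Figure D3:**
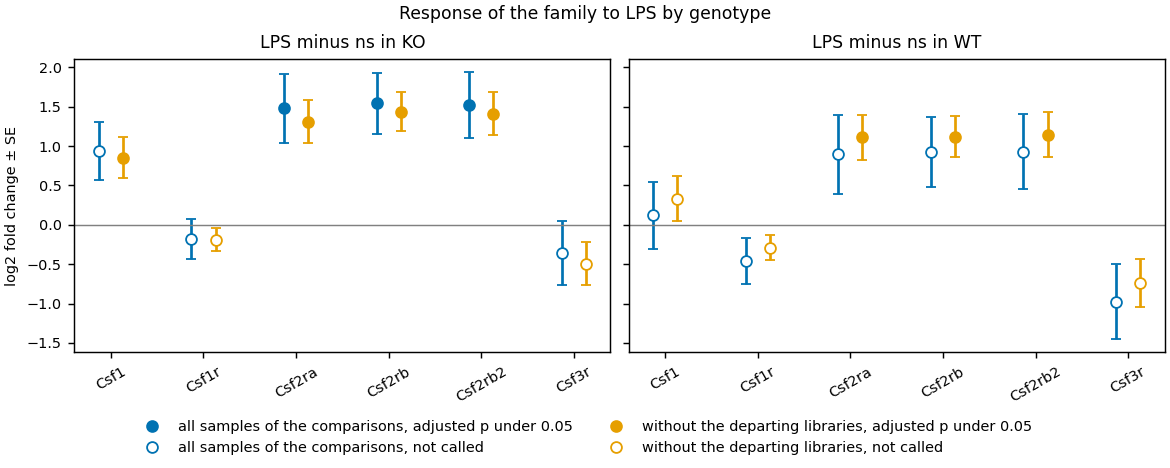
Log2 fold change between LPS and ns (± SE) of 6 genes, in KO on the left and WT on the right, with all samples of the comparisons in blue and without the departing libraries in orange; filled points have an adjusted p under 0.05. In KO Csf2ra, Csf2rb and Csf2rb2 lie between 1.31 and 1.54 and are filled in both fits, and in WT they lie between 0.89 and 1.14 and are filled in orange.

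Whether the response to LPS differed between genotypes was tested as an interaction. The interaction was called for 0 of 6 members, and for 0 of 17954 genes, that is 0% (edgeR; 0 of 6 members and 890 genes had an unadjusted p under 0.05, and DESeq2 called 0 members). Leaving out the departing libraries, 0 of 6 members were called, with 0 at an unadjusted p under 0.05, against 0.00568% of genes. For Csf2ra it was 0.59 ± 0.66 and without the departing libraries 0.20 ± 0.39. For Csf1 it was 0.82 ± 0.56, and 0.52 ± 0.39 without the departing libraries. In set 1 alone the interaction of Csf1 was 0.82 ± 0.20 and was not called either (edgeR, adjusted p = 0.802), against 0.00571% of genes. The calls in KO and their lack in WT with all samples therefore do not show a difference between the genotypes.

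KO and WT were also compared within each treatment. In ns, 0 of 6 members were called, against 0.0891% of all genes (edgeR; 0 of 6 at an unadjusted p under 0.05, and DESeq2 called 0). After leaving out the departing libraries it was 0 of 6 against 0.108%, with 0 at an unadjusted p under 0.05. Csf2ra showed the largest difference, with 5 of 8 KO ns samples below all WT ns samples, and 3 of 6 without the departing libraries. It was -0.87 ± 0.46 on the log2 scale (edgeR, adjusted p = 0.564), and -0.50 ± 0.27 without the departing libraries (edgeR, adjusted p = 0.763), where the 95% interval of the fold change allows a KO level from 0.489 to 1.03 times that of WT. In set 1 alone Csf2ra was at -0.55 ± 0.14 (edgeR, adjusted p = 0.329), where 0.114% of genes were called. The summed neutrophil markers were at 17451 CPM in WT ns 3 and 16256 CPM in WT ns 8. Csf2ra was at 314 and 346 CPM in them. WT ns 4, with the highest Csf2ra of WT ns (383 CPM), had a neutrophil sum of 1615 CPM. The part of neutrophils in the difference of Csf2ra was not tested. Csf1r differed by -0.06 ± 0.27, and its interval without the departing libraries was 0.886 to 1.34 times WT.

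With LPS, 0 of 6 members were called between KO and WT, against 0.078% of all genes (edgeR; 0 of 6 at an unadjusted p under 0.05, and DESeq2 called 0). The fit on the samples that do not depart called 0 of 6, against 0.0795%, with 0 at an unadjusted p under 0.05. Csf1 was 0.57 ± 0.40 higher in KO on the log2 scale (edgeR, adjusted p = 0.959). The median was 68.1 CPM in KO and 37.1 CPM in WT, but the ranges overlap, also without the departing libraries (36.3 to 93.6 against 29.7 to 81.0). In set 1 alone the difference was 0.81 ± 0.14 and was called (edgeR, adjusted p = 0.0364), against 0.143% of all genes there. Csf1r was at 8959 to 10442 CPM in the 7 KO LPS samples that do not depart. The 5 WT LPS samples that do not depart all lay lower, at 7618 to 8793 CPM. The share of all genes that separate in this way was not counted. The Csf1r difference of 0.22 ± 0.15 was not called (edgeR, adjusted p = 1). Csf2ra lay the other way: 6 of these 7 KO LPS samples were below all 5 WT LPS samples, with a difference of -0.30 ± 0.27 that was not called either (edgeR, adjusted p = 1).

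In the sex experiment KO and WT were compared without LPS, within each sex. All 7 members passed the filter on low counts, among 31709 genes. Between KO and WT males 0 of 7 were called, against 0.00946% of all genes (1 of 7 at an unadjusted p under 0.05). In females it was 0 of 7 against 0.164% (0 of 7), averaged over the sexes 0 of 7 against 0.432% (0 of 7), and for the sex-by-genotype interaction 0 of 7 against 0% (0 of 7 members and 879 genes). Between female and male WT it was 0 of 7 against 0.0725% (0 of 7). The test was edgeR's throughout, and DESeq2 also called 0 members in each of these comparisons. Without the 2 animals described next, 0 of 7 members were again called in each, against 0.0125% of all genes in males, 0.602% in females, 0.969% averaged, 0% for the interaction and 0.0564% between female and male WT. At an unadjusted p under 0.05 there was 1 member in females (Csf1), 1 averaged (Csf1) and 1 for the interaction (Csf2ra), and 0 in the other comparisons.

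2 WT animals stood out in the family as well as in other genes. The summed neutrophil markers were 48495 CPM in male WT 5 and 28877 CPM in female WT 2, and at most 7729 CPM in the other 16 animals, with all 9 markers in the table. In male WT, Csf2ra was at 92.4, 91.0, 97.3 and, in male WT 5, 209 CPM. In female WT it was at 75.0, 98.3, 76.7 and, in female WT 2, 149.97 CPM. Male KO animals lay between 78.6 and 91.4 CPM and female KO animals between 79.8 and 106 CPM, so both of these WT animals were above all others.

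Csf2rb and Csf3r showed the same pattern and Csf1r the opposite one. Csf2rb was at 237 CPM in male WT 5 and 232 CPM in female WT 2, and at 117 to 157 CPM in the other animals. Csf3r was at 1258 and 1103 CPM in these 2 and at 743 to 1039 CPM in the others. Csf1r was at 5506 and 5790 CPM in them and at 7156 to 8689 CPM in the others. Csf2rb2 did not stand apart, at 90.0 and 99.98 CPM within 82.3 to 105 CPM of the rest. The deviation from the labelled group had an SD over genes of 0.589 in male WT 5 and 0.522 in female WT 2. In the other animals it was at most 0.221 (log2 scale). The share of all genes in which these 2 animals lay above or below all others was not counted. The part of neutrophils in these values was not tested.

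The largest difference between male KO and WT was in Csf2ra, with -0.56 ± 0.24 on the log2 scale (edgeR, adjusted p = 0.719). Without the pair of neutrophil-rich animals it was -0.17 ± 0.10 (edgeR, adjusted p = 1), and without male WT 5 alone it was -0.17. Csf1 was 0.35 ± 0.19 higher in female KO (edgeR, adjusted p = 1). Its values were 32.6, 41.7, 52.5, 53.6 and 48.5 CPM in female KO and 25.8, 39.5, 40.2 and 38.0 CPM in female WT, and 4 of 5 KO animals were above all WT animals. Without female WT 2 and male WT 5 the difference in females was 0.40 ± 0.19 (edgeR, adjusted p = 0.629), and in males 0.25 ± 0.18 (edgeR, adjusted p = 1). Csf1r differed by 0.05 ± 0.13 in males and 0.08 ± 0.13 in females, with intervals of 0.872 to 1.23 and 0.890 to 1.26 times WT.

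**Figure D4:**
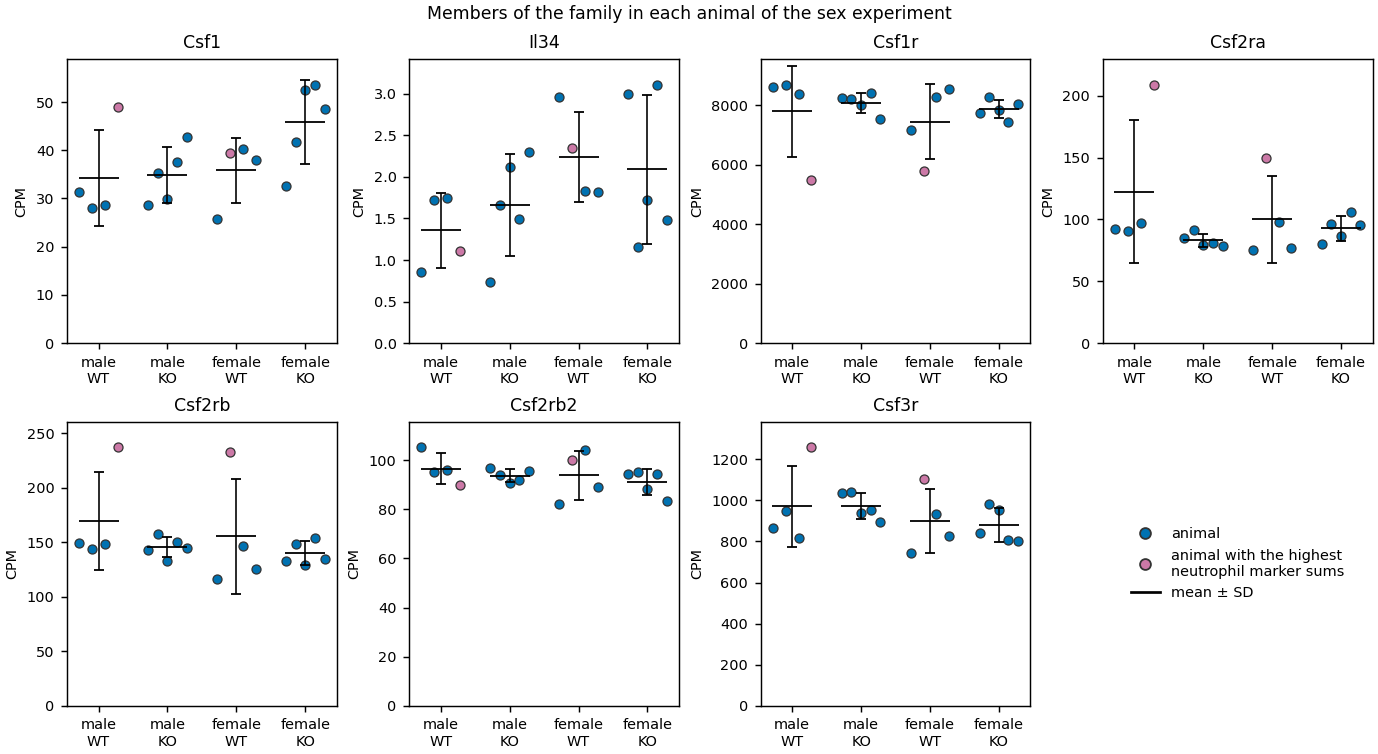
CPM of all 7 genes in each animal of the sex experiment, by sex and genotype, with mean ± SD in black; axes start at 0. The 2 animals with the highest neutrophil marker sums (pink) are the highest in Csf2ra, Csf2rb and Csf3r and the lowest in Csf1r, and the genotypes overlap for every gene.

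The genes around the receptors were followed as 7 lists, with values from all samples of the LPS comparisons unless stated. Of 6 further ligands and receptor chains, Csf2 (the GM-CSF gene), Il3 and Il5 were at 0 to 0.205 CPM in every sample of the LPS comparisons. Csf3, the G-CSF gene, was at 0 to 0.0250 CPM in WT ns and 0.0424 to 1.28 CPM in WT LPS, and at 0.0405 to 0.230 CPM in KO LPS. It was called higher with LPS in WT with all samples, at levels near the detection limit, and was not tested without the departing libraries. Il5ra, the IL-5 receptor chain, was lower with LPS in WT (-2.62 ± 0.68, edgeR, adjusted p = 0.00441) and was at -1.55 ± 0.60 in KO (edgeR, adjusted p = 0.0576). Il5ra was at -3.34 ± 0.65 in WT without the departing libraries. Of the 2 proteases that shed CSF1R from the cell surface, Adam10 rose in both genotypes, with 0.53 ± 0.15 in KO and 0.49 ± 0.17 in WT (edgeR, adjusted p = 0.00834 and 0.0312), and Adam17 was not called with all samples. Neither of the other reported IL-34 receptors, Ptprz1 and Sdc1, was called.

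Among 9 transcription factors that act on Csf1r, 2 rose and 3 fell with LPS in each genotype, against 26.2% of all genes called in KO and 28.1% in WT. Without the departing libraries 3 rose and 3 fell in each, against 37.8% and 37.4%. Cebpb, a factor induced by inflammation, rose from 43.2 ± 14.3 CPM in KO ns to 135 ± 44.9 in KO LPS (1.67 ± 0.28, edgeR, adjusted p = 3.49e-05) and from 56.4 ± 19.6 to 203 ± 27.5 in WT. Ets2 rose by 0.79 ± 0.23 in KO and 0.85 ± 0.26 in WT. Cebpa, a factor of myeloid differentiation, fell by 1.17 ± 0.26 in KO and by 1.31 ± 0.31 in WT, and Egr2, an immediate-early factor, fell by 2.04 ± 0.43 and 1.84 ± 0.49 on the log2 scale. Of 24 genes of CSF1R signalling 3 rose and 1 fell in KO, and 4 rose and 3 fell in WT, which is below the share of all genes called in KO (26.2%) and near it in WT (28.1%). Without the departing libraries it was 4 and 3 in KO and 6 and 5 in WT, against 37.8% and 37.4% of all genes. The Src-family kinase Fgr rose by 2.94 ± 0.47 in KO and 2.31 ± 0.52 in WT, and the phosphatase Ptpn6 by 0.64 ± 0.14 and 0.57 ± 0.17.

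The JAK-STAT list had 4 of 12 genes higher and 0 lower in KO, and 3 higher and 0 lower in WT, against 11.9% and 13.5% of all genes called higher. Socs3, which shuts off the G-CSF receptor, rose from 21.5 ± 8.39 to 234 ± 78.2 CPM in KO (3.45 ± 0.34, edgeR, adjusted p = 6.55e-09) and from 28.7 ± 7.16 to 247 ± 45.0 CPM in WT (3.12 ± 0.39). Pim1, a STAT target kinase, rose by 2.50 ± 0.39 in KO and 1.62 ± 0.43 in WT. Stat3 rose in KO (0.99 ± 0.36, edgeR, adjusted p = 0.0383). Of 9 targets linked to survival and division, 6 rose in each genotype and 0 fell, against 11.9% of all genes called higher in KO and 13.5% in WT. In the samples that do not depart 7 rose in KO and 6 in WT, against 18.7% and 18.3%. Among them Myc, a driver of division, went up by 1.24 ± 0.36 in KO and 1.36 ± 0.42 in WT, and the survival gene Bcl2a1d by 1.81 ± 0.46 and 3.31 ± 0.55. Bcl2a1d was at 2.30 ± 0.25 in KO and 2.23 ± 0.26 in WT without the departing libraries. Bcl2a1a, Bcl2a1b and Bcl2a1d are near copies whose counts can be split between them. The JAK-STAT list had 6 higher and 0 lower in WT and 5 and 0 in KO when the departing libraries were left out, against 18.3% and 18.7% of all genes called higher. In the comparisons of KO with WT, within treatments or within sexes, 0 genes of these 7 lists were called. Few genes of any kind were called there: 0.0891% of all genes at ns, 0.078% at LPS, 0.00946% in males and 0.164% in females.

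Pairs of members were compared over the 28 samples of the LPS comparisons, as a description, since the samples share treatment groups and the departing libraries. Csf2ra and Csf2rb had r = 0.969 on log2 CPM, and 0.917 over the 24 samples that do not depart. Csf2rb and Csf2rb2 had 0.992 and 0.981. Csf1r and Csf2ra had 0.576 with all samples and -0.632 without the departing libraries, so the sign rested on those libraries. Csf3r and Csf2rb likewise went from 0.531 to -0.682.

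Among 10407 genes with a mean of at least 5 CPM, the 3 whose log2 CPM over the same 28 samples was most like that of each member, by Pearson's r, were taken. Each r is followed by its value over the 24 samples that do not depart and over the 18 animals of the sex experiment. Csf2ra was closest to Dgkz (r = 0.988, then 0.952 and 0.581), Klhdc4 (0.987, 0.952 and 0.939) and B4galnt1 (0.985, 0.945 and 0.860). Csf2rb was closest to Csf2rb2 (0.992, 0.981 and 0.349), Nlrx1 (0.982, 0.965 and 0.895) and Sbno2 (0.980, 0.971 and 0.913). Csf2rb2 was closest to Csf2rb, Sbno2 (0.984, 0.967 and 0.433) and Slc12a4 (0.980, 0.936 and 0.095). Csf1r was closest to Ift172 (0.980, 0.834 and 0.668), Inpp5d (0.978, 0.897 and 0.878), which encodes the phosphatase SHIP1, and Top3b (0.974, 0.754 and 0.035). Csf1 was closest to Etv3 (0.951, 0.866 and 0.197), Pml (0.933, 0.829 and 0.242) and Entpd7 (0.922, 0.715 and -0.211). Csf3r was closest to Gpc2 (0.986, 0.929 and 0.021), Usp35 (0.983, 0.932 and 0.090) and Dnmt3a (0.977, 0.888 and -0.255). All of these values were lower without the departing libraries, and several were near 0 in the sex experiment.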

How the data were processed

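Raw read counts per gene, deposited by the authors in 2 tables, were used as they are. The submitters' processing notes name FastQC, STAR 2.6.1, featureCounts, Subread, DESeq2 and GRCm39. The labels list 57 libraries, of which 6 repeat libraries of the sex experiment have no column used here. The table of the sex experiment counts whole gene spans, introns included, so overlapping genes can share reads. Of its counts up to 20, 79.0% to 89.2% were even, against 39.7% to 45.6% in the LPS table, so those counts are not independent reads. Levels are not compared between the tables.

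Groups were taken from the labels. Genes were filtered with filterByExpr by group, libraries scaled by TMM and differences tested with edgeR 4.0.16 (robust glmQLFit, glmQLFTest, R 4.3.3), with library set as a covariate in the LPS experiment. P-values were adjusted by Benjamini-Hochberg over all genes tested, and a gene was called at an adjusted p under 0.05. Intervals of fold changes are normal 95% intervals of the estimate. DESeq2 1.42.0 was an alternative. The procedure was tested on simulated data. The limit that a count of 0 allows covers counting error only. Genes per list were named by rule: up to 4 with the largest change among those called, and 3 most-like genes per member by Pearson's r on log2 CPM (prior count 2). The 7 members and all gene lists were chosen with earlier results of these data known. The library sets came from the library names. The departing libraries (SD over 1) came from deviations over the 8970 genes, members left out, with a median above 10 CPM. The neutrophil-rich animals came from the marker list and were sought in the sex experiment only. They are 2 animals whose marker sums were each over 3 times that of any animal outside the pair. Leaving out the departing libraries and leaving out these animals were added after seeing the data. Same-numbered samples were not taken as pairs: their deviations correlated at a mean r of 0.209 over 24 pairs in the sex experiment (-0.561 to 0.757; other pairs -0.040) and 0.306 over 32 pairs in the LPS experiment (-0.386 to 0.920; other pairs 0.048), so same-numbered samples were more alike on average but not in every pair. No protein sequence was used. Some genes of the lists are counted but not reported here by name.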

Additional observations from a re-analysis of the deposited data

Results flagged for a closer look

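Of 52 groups of samples tested for a single far value, 12 had one, where chance gives about 1 in 20. In male WT 5, Csf1r was lower than in the other male WT animals, at 5505.5 CPM, and Csf1 (48.934 CPM), Csf2ra (208.79 CPM) and Csf2rb (236.89 CPM) were higher. This is the animal with the highest neutrophil marker sum. Csf1 was low in female WT 1, at 25.815 CPM. In WT LPS 7, Csf1r (3439.9 CPM), Csf2ra (165.69 CPM) and Csf2rb2 (76.025 CPM) were low, and in KO LPS 5 so were Csf1r (2022.4 CPM), Csf2ra (33.94 CPM), Csf2rb (38.894 CPM) and Csf2rb2 (21.248 CPM). Both are departing libraries.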

How the results depend on the processing

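Of 1945 values computed under alternatives, 1838 kept their direction and their side of the threshold, 72 changed sign, 32 were newly called and 3 were no longer called. The cause was not tested.

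For LPS in KO, 5 members were called in set 1 alone and 0 in set 2 alone, against 40.6% and 3.76% of all genes. For LPS in WT, 4 were called with the replicate block and WT LPS 8 and 9 kept apart (0 with these kept apart and no block), 4 with no library of number 2, 5 in set 1 alone and 3 without the departing libraries, and 0 to 1 when each sample was left out. The 1 call was Csf3r (-1.38) without WT LPS 5 and Csf2rb (0.93) without KO LPS 5. Over all genes, LPS in WT gave 6410 of 17995 called with the block and 5192 of 17995 with the pair kept apart and no block. It gave 5739 of 15816 with no library of number 2, 38.4% in set 1 alone and 37.4% without the departing libraries. The shares of the fits that left out 1 sample are not given here. For KO against WT at LPS, 1 member was called in set 1 alone, against 0.143% of all genes. The numbers share no stated source, and every replicate block in the LPS experiment also keeps WT LPS 8 and 9 apart.

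Signs that changed were of small differences. Without the neutrophil-rich animals, the male difference was -0.0814 for Csf1r and 0.15 for Csf3r, the female one -0.0222 for Csf1r, 0.16 for Csf2ra, 0.11 for Csf2rb and 0.0740 for Csf3r, and the average -0.0518 for Csf1r, 0.0478 for Csf2rb and 0.11 for Csf3r. With no filter Csf3r was 0.0169 in males. With the replicate block it was 0.0062 for Csf3r in females, -0.0028 for Csf1r and 0.0470 for Csf3r in the sex interaction, -0.27 for Csf1 with LPS in WT and 0.0456 for Csf1r between KO ns and WT ns. The last was 0.0804 with number 2 in the labelled groups, 0.0272 in set 1 alone and 0.12 without the departing libraries, where Csf1 was 0.0391, and Csf3r was 0.0308 in set 1 alone.

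Leaving out each sample gave ranges across or up to 0. In the LPS experiment they were -0.34 to 0.30 for Csf1 with LPS in WT, -0.16 to 0.0677 for Csf1r between KO ns and WT ns, and -0.0410 to 0.28 for Csf2rb between KO LPS and WT LPS. In males they were -0.0799 to 0.25 (Csf1), -0.0835 to 0.11 (Csf1r), -0.0752 to 0.0000 (Csf2rb2) and -0.0793 to 0.15 (Csf3r). In females they were -0.0227 to 0.15 (Csf1r), -0.22 to 0.16 (Csf2ra), -0.27 to 0.11 (Csf2rb), -0.0985 to 0.0134 (Csf2rb2), -0.12 to 0.0736 (Csf3r) and -0.28 to 0.0676 (Il34). Averaged they were -0.0014 to 0.10 (Csf1r) and -0.0616 to 0.0552 (Csf3r). For the sex interaction they were -0.0741 to 0.16 (Csf1r), -0.14 to 0.33 (Csf2rb), -0.0556 to 0.0566 (Csf2rb2) and -0.19 to 0.0741 (Csf3r). Between female and male WT they were -0.0202 to 0.29 (Csf1), -0.20 to 0.0358 (Csf1r), -0.56 to 0.0955 (Csf2ra), -0.39 to 0.0762 (Csf2rb), -0.0964 to 0.0156 (Csf2rb2) and -0.22 to 0.0396 (Csf3r).

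Over all genes, DESeq2 called 27 in males (edgeR 3), 210 in females (52), 358 averaged (137), 153 between female and male WT (23), 52 between KO and WT at ns (16) and 49 at LPS (14). With edgeR, females had 96 with no filter, 85 with the replicate block and 192 without the neutrophil-rich animals, where the average had 309, and KO against WT at LPS had 66 with the replicate block. With LPS in WT edgeR called 5039 genes, 532 in set 2 alone and 0 with number 2 in the labelled groups. With LPS in KO it called 4696, and 7118 in set 1 alone and 721 in set 2 alone. Il34 held at most 9 counts per sample in the LPS experiment and was not tested there.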
